A study of Rattus norvegicus with 15 samples.

Results

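The genes described here encode the proteins of the mitochondrial ribosome. They were chosen by name: a probe set was a member if the array annotation gave it a single gene symbol beginning with Mrpl (large subunit) or Mrps (small subunit). This gave 97 probe sets for 73 genes, 46 named Mrpl and 27 named Mrps, of the 14217 genes with a single symbol on the array and the 31042 probe sets tested. Of the members 18 genes had several probe sets, and each gene was represented by the probe set with the highest mean log2 signal over all arrays. The rule itself used no expression change, but it was set with earlier results of these data known.

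RNA of whole kidneys of male rats aged 10 to 12 weeks was hybridised to Affymetrix Rat Genome 230 2.0 arrays, with 5 kidneys and 5 arrays in each of 3 groups. In the allogeneic group (aTX) the left kidney of a Lewis-Brown-Norway (LBN) rat was placed in a Lewis (LEW) rat, which rejects it acutely, in the syngeneic group (sTX) it was placed in another LBN rat, and the control group (ctr) consisted of native LBN kidneys. Recipients lost both of their own kidneys at the operation, received no immunosuppression, and the grafts were taken on the fourth day. The comparisons asked how transcripts changed with rejection together with surgery (aTX against ctr), with surgery (sTX against ctr) and with rejection beyond surgery (aTX against sTX). The strains follow the methods and the series design. The source names of the samples give a Lewis donor for both graft types and an LBN recipient for aTX, and the treatment field of sTX 4 and sTX 5 calls them allogeneic against their titles. The controls were described as the second kidneys of the LBN donors, so a control and a graft may come from one animal, and which ones do was not given in the sources used here.

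Mitochondrial ribosomes translate the few proteins that mitochondrial DNA encodes, all of them subunits of the respiratory chain and of ATP synthase. Their RNAs come from mitochondrial DNA, whereas all of their proteins are encoded in the nucleus, made in the cytosol and imported. The kidney tubule, whose reabsorption of salt and solutes consumes much ATP, is among the tissues richest in mitochondria. Some proteins of the particle have counterparts in the bacterial ribosome, and others exist only in mitochondria.

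Several properties of the arrays bear on every value below. The runs were inferred from the hybridisation time in the array headers. Arrays with a time before noon are called the first run, and the others the second run. All ctr arrays and aTX 2, 3 and 4 fell in the first run, and all sTX arrays with aTX 1 and 5 in the second. So sTX and ctr shared no run and are linked across runs only through the aTX arrays. Cell types differed as well. Summed signals of 10 T cell and cytotoxic cell markers were 3573.5 to 6031.1 in aTX, 200.6 to 403.2 in sTX and 127.8 to 215.6 in ctr, and all 10 were higher in aTX than in ctr. Summed signals of 6 macrophage markers were 3289.5 to 3526.5 in aTX, 527.4 to 854.5 in sTX and 293.7 to 373.7 in ctr, with 6 higher in aTX and 5 higher in sTX than in ctr. Summed signals of 6 markers of dividing cells were 949.7 to 1054.5 in aTX, 563.0 to 1037.7 in sTX and 98.0 to 147.0 in ctr, with all 6 higher in both graft groups than in ctr. Summed signals of 11 proximal tubule markers were 10676.4 to 14468.3 in aTX, 22891.1 to 27808.0 in sTX and 24511.6 to 34234.4 in ctr, with all 11 lower in aTX and 3 lower in sTX than in ctr. The ratio of 3′ to 5′ signal of GAPDH, a measure of RNA integrity, averaged 1.04 ± 0.025 in aTX, 1.1 ± 0.0235 in sTX and 1.17 ± 0.0468 in ctr (SD, n = 5 each). That of beta-actin averaged 1.23 ± 0.0578 in aTX, 1.51 ± 0.0596 in sTX and 1.74 ± 0.168 in ctr. The part of cell types and RNA integrity in the changes of the members was not tested, and counts with the run taken into account are given with each comparison. In whole kidney, fewer cells of a type and less RNA per cell cannot be told apart.

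The group means of the 73 members lay between 83.3 and 1604 signal units, against a median of 25.6 over the probe sets of the ctr arrays. Between replicate arrays a member varied little: the median SD of the log2 signal was 0.084 in aTX, 0.095 in sTX and 0.099 in ctr, against 0.119, 0.126 and 0.136 in the same groups for the 5970 genes with a geometric mean signal of at least 100. These 5970 brighter genes serve below as the background beside all probe sets.

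The mitochondrial ribosomal protein genes changed in both directions in aTX, and by small amounts. Against ctr 16 of 73 were higher and 28 were lower in aTX (limma, adjusted p below 0.05), with a median log2 change of -0.07. The background was 20.2% higher and 22.2% lower for all probe sets, and 34.3% and 40.7% for the brighter genes, so the members' shares of 21.9% and 38.4% lay between these. The sizes differed more. The middle part of the members, from the lower to the upper quartile, spanned 0.40 log2 units, against 0.95 for the brighter genes. A change of more than 1.5-fold was seen in 2 of the 73 (2.74%), Mrpl34 and Mrpl16, against 41.5% of the brighter genes. With the run as a block 13 members were higher and 23 lower, and within the first run, with 3 aTX and 5 ctr arrays, 11 members were higher and 23 lower. Among all 31042 probe sets the block gave 5601 higher and 6346 lower, and the first run alone 5303 and 6029. The fit without the block gave 6268 and 6890. With each array centred on its median the split was 11 higher and 32 lower, and that scaling moved the median of all probe sets to -0.15 (-0.07 as deposited).

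In sTX against ctr 13 of 73 members were higher and 1, Mrps23, was lower, with a median log2 change of 0.04. The background was 11.4% higher and 6.32% lower for all probe sets and 18.7% and 16.4% for the brighter genes. No member changed by more than 1.5-fold, against 10.0% of the brighter genes. The calls of this comparison changed with the scaling. Median centring moved the median of all probe sets to -0.11 (0.09 as deposited) and gave 1 higher and 26 lower members. Of all 31042 probe sets, 1812 were then higher and 4724 lower, against 3539 and 1961 as deposited. With the run as a block, which rests on the 5 aTX arrays spread over both runs, 0 members were called higher and 0 lower by limma (9 and 3 at an unadjusted p below 0.05), while their median log2 change was 0.04 as in the fit without the block, and among all 31042 probe sets 713 were called higher and 255 lower, against 3539 and 1961 without it. Quantile scaling, by contrast, kept all 13 rises and gave 16 higher and 0 lower members, with 2807 higher and 2388 lower among all probe sets. The rises in sTX given below are those found on the deposited scale. Without sTX 4 and sTX 5, whose treatment field goes against their titles, 10 members were higher and 2 lower. Without the array of ctr 1, 8 members were higher. Of all probe sets 3034 were higher and 1760 lower without sTX 4 and sTX 5, and 3184 and 1664 without ctr 1.

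In aTX against sTX 6 of 73 members were higher and 28 were lower, with a median log2 change of -0.08. The background was 13.9% higher and 22.1% lower for all probe sets and 27.5% and 39.2% for the brighter genes, and 31.2% of the brighter genes changed by more than 1.5-fold, against 2.74% of the members (again Mrpl34 and Mrpl16). With the run as a block 4 members were higher and 21 lower, and within the second run, with 2 aTX and 5 sTX arrays, 4 members were higher and 18 lower. Among all 31042 probe sets the block gave 3552 higher and 5060 lower, and the second run alone 3590 and 5120. The fit without the block gave 4327 and 6857. Median centring moved the median of all probe sets to -0.06 (-0.18 as deposited) and gave 16 higher and 13 lower members. Of all probe sets, 5427 were then higher and 5242 lower. Without sTX 4 and sTX 5 the counts were 4 higher and 19 lower for the members, and 3758 and 5534 for all probe sets. The 3 comparisons share arrays pairwise, so their counts are not independent of each other.

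**Figure D1:**
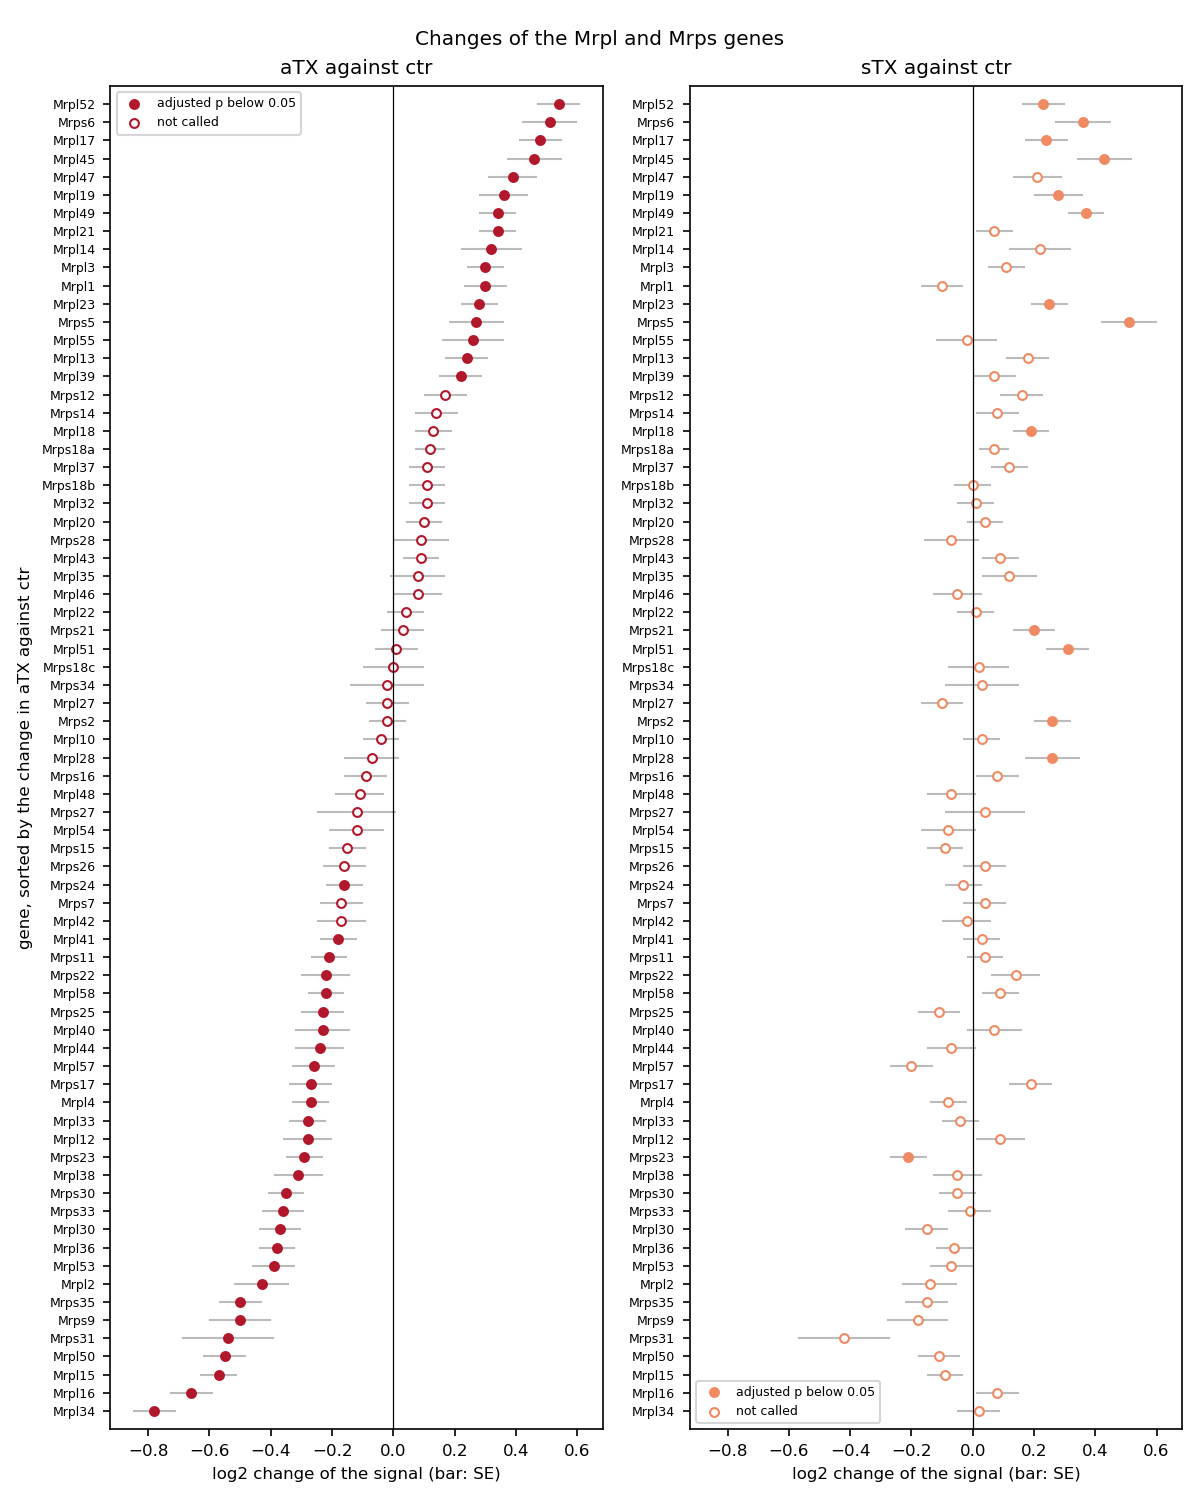
Log2 change of the signal (x axis, bars are the SE) of each of the 73 genes (y axis, sorted by the change in aTX), for aTX against ctr on the left and sTX against ctr on the right. Filled points had an adjusted p below 0.05 in limma. In aTX the genes ran from -0.78 for Mrpl34 to 0.54 for Mrpl52, and in sTX from -0.42 for Mrps31 to 0.51 for Mrps5.

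**Figure D2:**
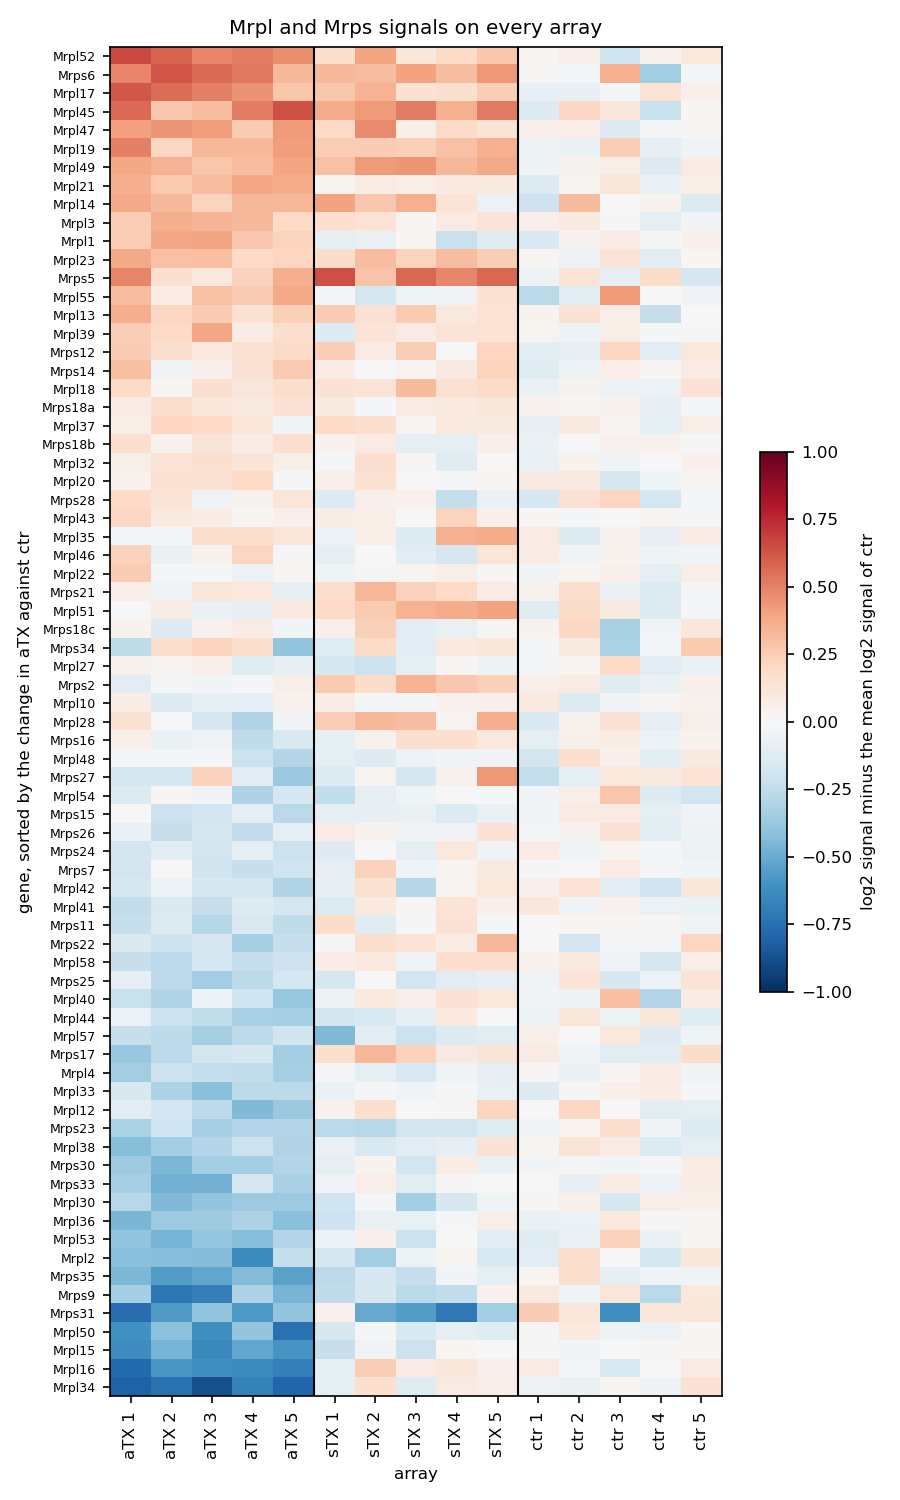
Log2 signal of the 73 genes (rows) on each of the 15 arrays (columns), as the difference from the mean log2 signal of the 5 ctr arrays. Rows are sorted by the change in aTX against ctr, so the deepest aTX colours lie at both ends of the list by construction. On ctr 3 Mrps31 stood well below the other ctr arrays (148.0, against 244.9 to 270.4).

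NRF1, GABP (a member of the ETS family) and YY1 are DNA-binding factors known to act on many nuclear genes of mitochondrial proteins, and their recognition letters were searched in the promoters of the members. RefSeq windows of 300 bases around the start site (rat build GRCr8) were matched by gene identifier for 59 of the 73 members and searched on both strands. GCGCANGCG, for NRF1, was in 11 of 59 (18.6%), against 8.05% of the promoters of 19005 protein-coding genes. CCGGAAG, for ETS factors such as GABP, was in 20 (33.9%), against 11.2%, and AAGATGGC, for YY1, in 14 (23.7%), against 3.92%. The CREB letters TGACGTCA were in 1 (1.69%, against 2.22%) and the E-box CACGTG in 6 (10.2%, against 7.27%). By the call in aTX against ctr, the matches fell as follows. NRF1 letters were in 3 of 13 higher, 4 of 22 lower and 4 of 24 uncalled members, ETS letters in 3, 8 and 9 of these, and YY1 letters in 2, 3 and 9. E-box letters were in 0, 3 and 3 of the higher, lower and uncalled members, and CREB letters in 1, 0 and 0. A match is a description of the letters and not of a bound site. No test was made of these shares.

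The stretches from 120 bases before the start site to 30 bases from it are shown for 6 members, to set matches in genes that rose, fell and were not called beside each other. Capitals mark the letters of NRF1, ETS or YY1 on either strand, and sequences run 5′ to 3′ on the strand of the gene.
Mrpl34, lower, NRF1 letters, chr16:18186327-18186476 (plus strand): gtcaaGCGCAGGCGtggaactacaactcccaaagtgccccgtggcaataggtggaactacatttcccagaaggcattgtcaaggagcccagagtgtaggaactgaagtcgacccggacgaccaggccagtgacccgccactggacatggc
Mrps30, lower, YY1 letters, chr2:52195875-52196024 (minus strand): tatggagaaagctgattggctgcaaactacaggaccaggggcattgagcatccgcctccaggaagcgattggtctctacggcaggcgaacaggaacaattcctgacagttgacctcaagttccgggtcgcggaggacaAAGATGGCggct
Mrpl17, higher, NRF1 letters, of which 2 matches overlap, chr1:169575670-169575819 (minus strand): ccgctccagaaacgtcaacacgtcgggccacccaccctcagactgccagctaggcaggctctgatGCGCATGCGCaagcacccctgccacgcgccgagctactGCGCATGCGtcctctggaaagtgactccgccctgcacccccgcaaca
Mrpl52, higher, ETS letters, chr15:31852816-31852965 (plus strand): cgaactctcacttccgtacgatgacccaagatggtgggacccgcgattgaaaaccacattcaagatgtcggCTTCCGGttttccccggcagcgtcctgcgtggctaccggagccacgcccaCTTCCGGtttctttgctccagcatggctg
Mrps6, higher, YY1 letters, chr11:44778547-44778696 (plus strand): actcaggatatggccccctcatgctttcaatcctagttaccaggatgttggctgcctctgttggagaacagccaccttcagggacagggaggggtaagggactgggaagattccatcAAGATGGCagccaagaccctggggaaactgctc
Mrps18a, not called, ETS and YY1 letters, chr9:22367351-22367500 (minus strand): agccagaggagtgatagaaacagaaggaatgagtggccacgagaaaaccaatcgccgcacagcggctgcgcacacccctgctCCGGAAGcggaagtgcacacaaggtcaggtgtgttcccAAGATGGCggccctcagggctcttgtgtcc
Of the 4 windows with NRF1 letters or with YY1 letters alone, Mrpl34 and Mrps30 belong to members that were lower and Mrpl17 and Mrps6 to members that were higher in aTX.

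Among the large-subunit proteins 14 of 48 were higher (29.2%) and 18 lower (37.5%) in aTX than in ctr, beside 34.3% and 40.7% of the brighter genes. The deepest fall was that of Mrpl34, the counterpart of bacterial protein L34. Its signal was 205.4, 213.7, 195.4, 224.5 and 207.3 in aTX, 336.8, 402.5, 330.6, 379.4 and 376.6 in sTX and 345.9, 343.9, 366.0, 346.0 and 397.7 in ctr. Every aTX array lay below every other array, and sTX and ctr overlapped. Mrpl34 was 1.72-fold lower in aTX than in ctr (log2 change -0.78 ± 0.07, SE, adjusted p = 9.32e-09) and 1.74-fold lower than in sTX (adjusted p = 1.36e-08).

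Mrpl16, whose bacterial counterpart lies by the peptidyl transferase centre where peptide bonds form, showed the same order of groups. It measured 397.6, 456.4, 445.6, 438.7 and 426.0 in aTX, 639.9, 810.3, 721.3, 739.6 and 709.0 in sTX and 721.9, 676.9, 614.4, 684.5 and 722.8 in ctr. The aTX arrays were again separate from all others, at a log2 change of -0.66 ± 0.07 against ctr (adjusted p = 1.03e-07) and of -0.74 ± 0.07 against sTX (adjusted p = 4.04e-08). Mrpl15, the counterpart of bacterial L15, averaged 777 ± 40.9 in aTX, 1080.3 ± 89.5 in sTX and 1149.9 ± 15.9 in ctr (SD, n = 5 each). All aTX arrays lay below all others, and Mrpl15 was 1.48-fold lower in aTX than in ctr (adjusted p = 2.9e-07). Mrpl50, a protein with no bacterial counterpart, averaged 288 ± 29.5 in aTX, 391 ± 15.8 in sTX and 422 ± 18.7 in ctr, a log2 change of -0.55 ± 0.07 against ctr (adjusted p = 1.14e-06), and its second probe set was also called lower.

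Smaller falls in aTX reached proteins with known tasks. Mrpl12, part of the stalk that recruits translation factors and a reported partner of the mitochondrial RNA polymerase, measured 676.7, 638.2, 609.1, 538.6 and 565.3 in aTX, 751.7, 820.0, 734.2, 734.4 and 847.3 in sTX and 733.9, 840.8, 728.6, 677.3 and 682.3 in ctr. All aTX arrays lay below all others, by a log2 change of -0.28 ± 0.08 against ctr and -0.36 ± 0.08 against sTX (adjusted p = 0.00568 and 0.000687). Mrpl10, which carries Mrpl12 in the stalk, gave 251 ± 16.3 in aTX and 258 ± 16 in ctr and was not called (log2 change -0.04 ± 0.06). Mrpl58, also known as ICT1, is a peptidyl-tRNA hydrolase built into the large subunit and fell by 0.22 ± 0.06 on the log2 scale (adjusted p = 0.00613). Mrps30, which despite its name sits in the large subunit, fell by 0.35 ± 0.06 (adjusted p = 7.02e-05). Mrpl38 fell by 0.31 ± 0.08, Mrpl41 by 0.18 ± 0.06 and Mrpl44, which has a ribonuclease III fold, by 0.24 ± 0.08. The calls of Mrpl41 and Mrpl44 were lost when single arrays were left out (without aTX 1, aTX 3 or ctr 1 for Mrpl41, and without aTX 5, ctr 2 or ctr 4 for Mrpl44). That of Mrpl41 was also lost with quantile scaling, without the intensity trend, with the run as a block and within the first run.

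Large-subunit genes that were higher in aTX included several whose proteins surround the mouth of the tunnel through which the new chain leaves. Mrpl17 measured 1760.8, 1684.0, 1629.1, 1560.5 and 1386.4 in aTX, 1390.0, 1458.7, 1268.2, 1280.5 and 1361.0 in sTX and 1085.4, 1084.3, 1128.3, 1256.7 and 1183.9 in ctr. All graft arrays were above all ctr arrays, and aTX and sTX overlapped. The log2 change was 0.48 ± 0.07 in aTX (adjusted p = 1.27e-05) and 0.24 ± 0.07 in sTX (adjusted p = 0.0275). The sTX call of Mrpl17 was lost without sTX 1, sTX 2, ctr 1 or ctr 2, without sTX 4 and sTX 5 together, with median centring, without the intensity trend and with the run as a block. Mrpl45, which lies at the tunnel exit and ties the ribosome to the inner membrane, measured 249.0, 203.1, 208.1, 240.1 and 262.1 in aTX, 217.4, 225.8, 239.4, 214.7 and 240.5 in sTX and 153.9, 194.4, 182.1, 144.5 and 170.8 in ctr. Both kinds of graft exceeded every ctr array, by log2 changes of 0.46 ± 0.09 in aTX (adjusted p = 0.000234) and 0.43 ± 0.09 in sTX (adjusted p = 0.00162). With the run as a block Mrpl45 gave 0.20 ± 0.14 in sTX and was not called (adjusted p = 0.575). Mrpl23 rose by 0.28 ± 0.06 in aTX and 0.25 ± 0.06 in sTX, and Mrpl47 rose by 0.39 ± 0.08 in aTX and gave 0.21 ± 0.08 in sTX without being called. Mrpl22, which lines the tunnel, was not called and averaged 457 ± 42.1 in aTX and 445 ± 19.9 in ctr. Mrpl44, grouped here with the exit tunnel too, went the other way and was lower in aTX (log2 change -0.24 against ctr).

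The largest rise in aTX was that of Mrpl52, a protein found only in mitochondria, and it rested on 1 of 2 probe sets. The probe set used averaged 339 ± 19.4 in aTX, 273 ± 21.2 in sTX and 233 ± 18.1 in ctr (log2 change 0.54 ± 0.07 against ctr, adjusted p = 2.62e-06), whereas the other gave a log2 change of -0.14 and was not called (adjusted p = 0.255). Mrpl49, another protein found only in mitochondria, measured 244.3, 237.5, 226.5, 231.2 and 245.2 in aTX, 229.0, 249.8, 253.2, 234.3 and 242.7 in sTX and 180.1, 190.9, 195.5, 170.2 and 197.0 in ctr. Both graft groups lay above all ctr arrays and overlapped each other, and the second probe set of Mrpl49 was also higher in both. That second probe set was called higher in aTX against sTX too (log2 change 0.29, adjusted p = 0.0101), where the probe set used gave -0.03 and was not called. Mrpl19 rose by 0.36 ± 0.08 in aTX and 0.28 ± 0.08 in sTX against ctr, with overlapping arrays in both. Mrpl39 averaged 157 ± 12.6 in aTX, 142 ± 10.8 in sTX and 135 ± 3.89 in ctr (log2 change 0.22 ± 0.07 against ctr, adjusted p = 0.0248). The call of Mrpl39 was lost without aTX 3 or ctr 2, with the run as a block, within the first run and under both other scalings.

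Further large-subunit genes were higher in aTX against sTX. Mrpl1, the counterpart of the protein of the L1 stalk that guides spent tRNA out, averaged 234 ± 12.9 in aTX, 177 ± 10.5 in sTX and 189.7 ± 11.9 in ctr. All aTX arrays exceeded all others, by 0.40 ± 0.07 against sTX (adjusted p = 7.7e-05) and 0.30 ± 0.07 against ctr (adjusted p = 0.000981). Mrpl21 rose by 0.27 ± 0.06 and Mrpl3, whose bacterial counterpart reaches toward the peptidyl transferase centre, by 0.19 ± 0.06 against sTX (adjusted p = 0.00138 and 0.0142). The call of Mrpl3 was lost with the run as a block, within the second run and without sTX 4 and sTX 5 together. Mrpl55 was also called (log2 change 0.29 ± 0.10 against sTX, adjusted p = 0.0306), but its arrays overlapped and the call was lost when aTX 1, 3 or 5 or sTX 2, 3 or 4 was left out.

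Of 25 small-subunit proteins 2 were higher (8.0%) and 10 lower (40.0%) in aTX than in ctr, with a median log2 change of -0.15. Of the brighter genes 34.3% were higher and 40.7% lower, so the share that was lower lay near this background. The difference from the large subunit (median -0.01) was not tested. Mrps9, the counterpart of bacterial S9, averaged 236 ± 30.6 in aTX, 295 ± 27.7 in sTX and 334 ± 36.1 in ctr and was lower against ctr by 0.50 ± 0.10 on the log2 scale (adjusted p = 0.000187), and its second probe set was also called lower. Mrps31, found only in mitochondria, measured 133.8, 152.6, 171.8, 152.1 and 172.6 in aTX, 233.5, 159.2, 153.8, 137.8 and 178.5 in sTX and 270.4, 245.6, 148.0, 244.9 and 246.5 in ctr. Apart from ctr 3, which lay among the aTX arrays, every ctr array was above every aTX array, and the fall of 0.54 ± 0.15 on the log2 scale was called (adjusted p = 0.00557). Mrps17 averaged 552 ± 36.3 in aTX, 756 ± 50.3 in sTX and 664 ± 60.6 in ctr, with a larger difference from sTX (log2 change -0.45 ± 0.07) than from ctr (-0.27 ± 0.07). Mrps22, found only in mitochondria, had a log2 change of -0.36 ± 0.08 against sTX (adjusted p = 0.00149) and -0.22 ± 0.08 against ctr (adjusted p = 0.0385). The call of Mrps17 against ctr was lost with the run as a block and within the first run. The call of Mrps22 against ctr was also lost in both of these ways, without the intensity trend and with the probe sets of the gene averaged. It was lost as well without aTX 2, 4 or 5 or without ctr 1, 3, 4 or 5.

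Mrps6, the counterpart of bacterial S6, was the small-subunit gene with the largest rise in aTX. It measured 1090.2, 1200.6, 1152.6, 1116.8 and 974.1 in aTX, 971.2, 962.7, 1025.7, 962.2 and 1050.6 in sTX and 784.2, 771.3, 991.6, 610.6 and 771.4 in ctr. The ctr arrays were widely spread, with ctr 3 above the lowest arrays of both graft groups, and the log2 change was 0.51 ± 0.09 in aTX (adjusted p = 0.000143) and 0.36 ± 0.09 in sTX (adjusted p = 0.0113). Mrps23, found only in mitochondria, averaged 469 ± 16.9 in aTX, 497 ± 23.3 in sTX and 574 ± 44.8 in ctr, and its fall in sTX (-0.21 ± 0.06, adjusted p = 0.0253) was not called without sTX 1, sTX 2, ctr 2 or ctr 3. In aTX the fall of Mrps23 was 0.29 ± 0.06 on the log2 scale (adjusted p = 0.000674).

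Several genes higher in sTX than in ctr had a higher mean in sTX than in aTX as well. Mrps5, next to the channel by which mRNA enters, measured 243.2, 194.3, 187.4, 204.0 and 224.0 in aTX, 272.4, 211.6, 258.4, 244.1 and 259.0 in sTX and 167.5, 191.4, 162.2, 197.0 and 154.9 in ctr. The sTX arrays exceeded all ctr arrays and overlapped with aTX, with log2 changes of 0.51 ± 0.09 in sTX (adjusted p = 0.000425) and 0.27 ± 0.09 in aTX (adjusted p = 0.0208). The call in aTX against ctr was lost without aTX 1, aTX 5 or ctr 5. It was also lost with median centring, with the methods' t-test after adjustment, with the run as a block and within the first run. Mrpl51, found only in mitochondria, measured 256.7, 269.7, 244.5, 241.7 and 274.4 in aTX, 293.2, 305.6, 325.2, 330.6 and 339.0 in sTX and 235.5, 290.2, 271.9, 234.8 and 252.3 in ctr. All sTX arrays lay above all others, by 0.31 ± 0.07 against ctr (adjusted p = 0.00385), while aTX against ctr gave 0.01 ± 0.07 (adjusted p = 0.962). Mrps2 averaged 307 ± 12.6 in aTX, 372 ± 15.1 in sTX and 311 ± 18.8 in ctr, and the log2 change in sTX against ctr was 0.26 ± 0.06 (adjusted p = 0.0041). With the run as a block the log2 changes in sTX against ctr were 0.26 ± 0.15 for Mrps5, 0.24 ± 0.13 for Mrpl51 and 0.26 ± 0.11 for Mrps2, none of them called. After median centring the rise of Mrps5 was called and those of Mrpl51 and Mrps2 were not. The rises of Mrpl51 and Mrps2 were also not called when the probe sets of a gene were averaged.

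**Figure D3:**
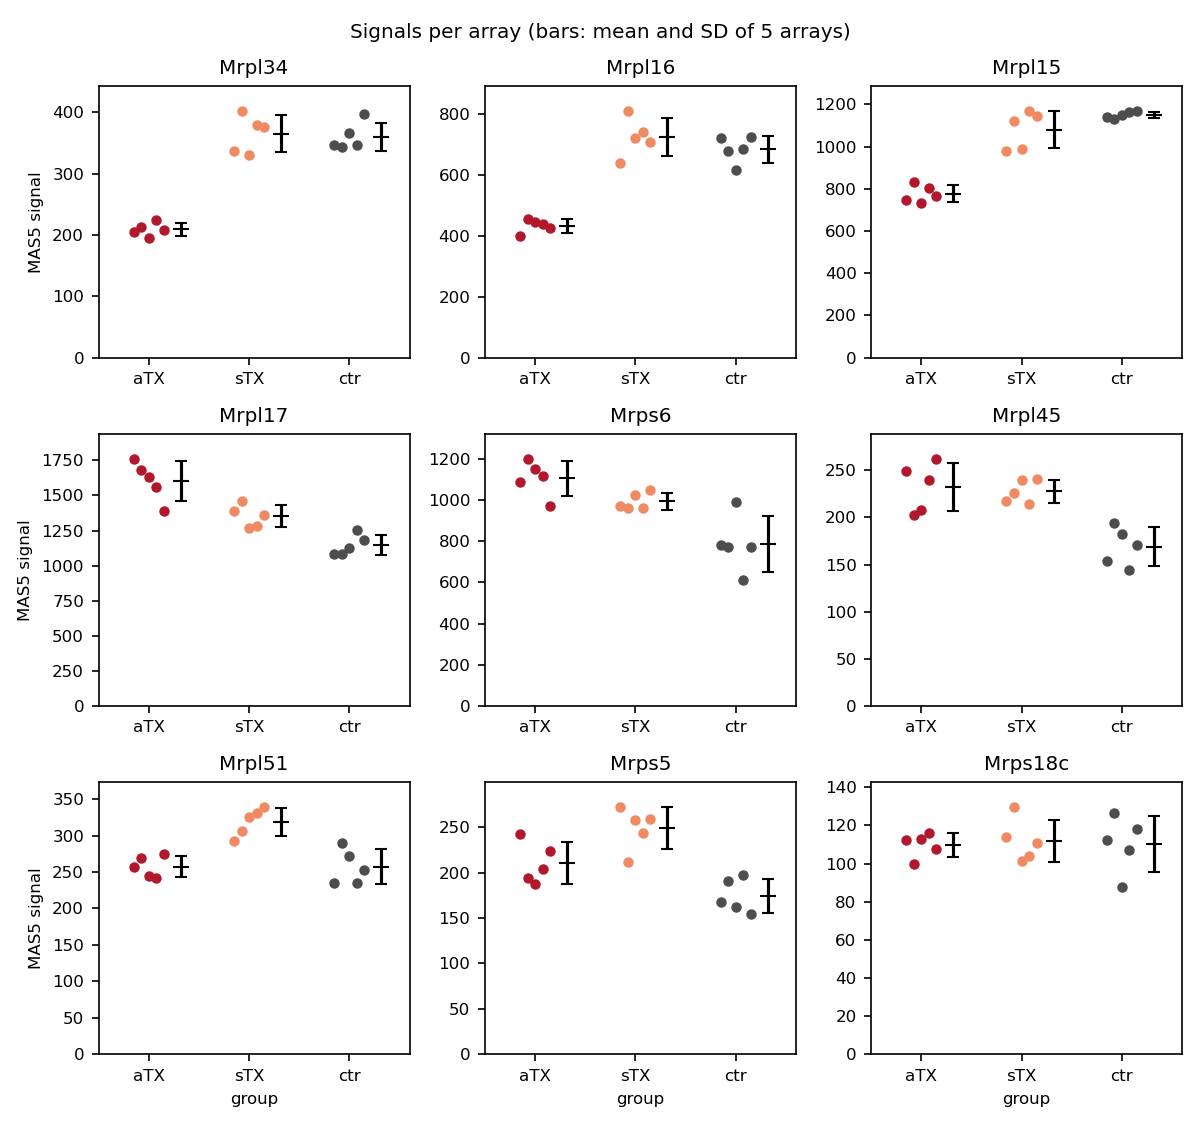
MAS5 signal (y axis, from 0) of 9 genes on each array of aTX, sTX and ctr, with the mean and SD of 5 arrays beside the points. Mrpl34, Mrpl16 and Mrpl15 were separated in aTX from all other arrays, Mrpl17 and Mrpl45 were above ctr in both graft groups, Mrpl51 was highest in sTX, and the 3 groups of Mrps18c overlapped with means of 109.8, 112 and 110.5.

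A set of 22 members was not called in any comparison by the probe set used. It included Mrps12, which lies by the decoding centre, with 407 ± 15.8 in aTX, 404 ± 30.5 in sTX and 363 ± 38.7 in ctr. Mrps15 gave a log2 change of -0.15 ± 0.06 and Mrps16 of -0.09 ± 0.07 in aTX against ctr, and Mrpl54 of -0.12 ± 0.09. Another probe set of Mrps15 was called lower in aTX against ctr (log2 change -1.04, adjusted p = 0.0123) and against sTX (-0.90, adjusted p = 0.0349). The 3 relatives of bacterial S18 were all in this set. Mrps18a, in the large subunit, averaged 404 ± 11.2 in aTX, 391 ± 14.2 in sTX and 372 ± 13 in ctr. Mrps18b averaged 453 ± 17.4, 419 ± 23 and 419 ± 13.4 in aTX, sTX and ctr, and Mrps18c 109.8 ± 6.29, 112 ± 11.1 and 110.5 ± 14.7. Another probe set of Mrps18c was called lower in aTX against sTX (log2 change -0.27, adjusted p = 0.0472). Mrps27, which carries pentatricopeptide repeats, averaged 83.3 ± 13.4, 93.3 ± 16.5 and 90.1 ± 9.73 in the same order. Another probe set of Mrps27, with a mean signal of 38.6, was called higher in aTX against ctr (log2 change 0.49, adjusted p = 0.00785). The remaining one (mean signal 44.1) was not called.

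Grouped by ancestry, 12 of 42 members with a bacterial counterpart were higher (28.6%) and 13 lower (31.0%) in aTX than in ctr (median log2 change 0.02). Of 29 found only in mitochondria 4 were higher (13.8%) and 15 lower (51.7%), with a median of -0.18. The brighter genes had 34.3% higher and 40.7% lower. By place in the particle, 4 of 6 members at the exit tunnel were higher and 1 was lower (median 0.33). Of 6 in the central protuberance 0 were higher and 3 lower (median -0.17), and of 4 in the stalk 0 were higher and 2 lower (median -0.2). Of 4 by the peptidyl transferase centre 1 was higher and 2 were lower (median -0.23). The remaining 2 members in the grouping by ancestry, Mrps18a and Mrps18b, are extra copies of S18. In sTX against ctr the members with a bacterial counterpart had 9 higher (21.4%) and 0 lower. Those found only in mitochondria had 4 higher (13.8%) and 1 lower (3.45%). Of the brighter genes 18.7% were higher and 16.4% lower in sTX. The differences between the classes and between the places were not tested.

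The members lay between other gene groups of the same machinery. Of 42 genes named Nduf, which encode subunits and assembly factors of respiratory complex I, 1 was higher and 32 were lower in aTX than in ctr (median log2 change -0.46). Of 41 genes of the cytosolic ribosome (Rpl and Rps), 32 were higher and 0 lower (median 0.43). As shares, 2.38% of the Nduf genes were higher and 76.2% lower, and 78.0% of the cytosolic ribosome genes were higher. The background was 20.2% higher and 22.2% lower for all probe sets, and 34.3% and 40.7% for the brighter genes. In sTX against ctr the medians were -0.08 for the Nduf genes, 0.22 for the cytosolic ribosome and 0.04 for the mitochondrial one. By array, the median difference of the 73 members from the ctr mean ran from -0.10 to -0.02 in aTX, from -0.02 to 0.09 in sTX and from -0.06 to 0.04 in ctr. The summed signal of the members was 27576 to 28928 in aTX, 29605 to 31318 in sTX and 28375 to 30247 in ctr, so that by this measure aTX and sTX did not overlap and both overlapped with ctr. The brighter genes separated aTX from sTX as well. Their median difference from the ctr mean ran from -0.083 to -0.04 in aTX, from 0.001 to 0.016 in sTX and from -0.012 to 0.017 in ctr. The median difference of the Nduf genes ran from -0.50 to -0.44 in aTX, from -0.15 to 0.03 in sTX and from -0.04 to 0.04 in ctr.

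**Figure D4:**
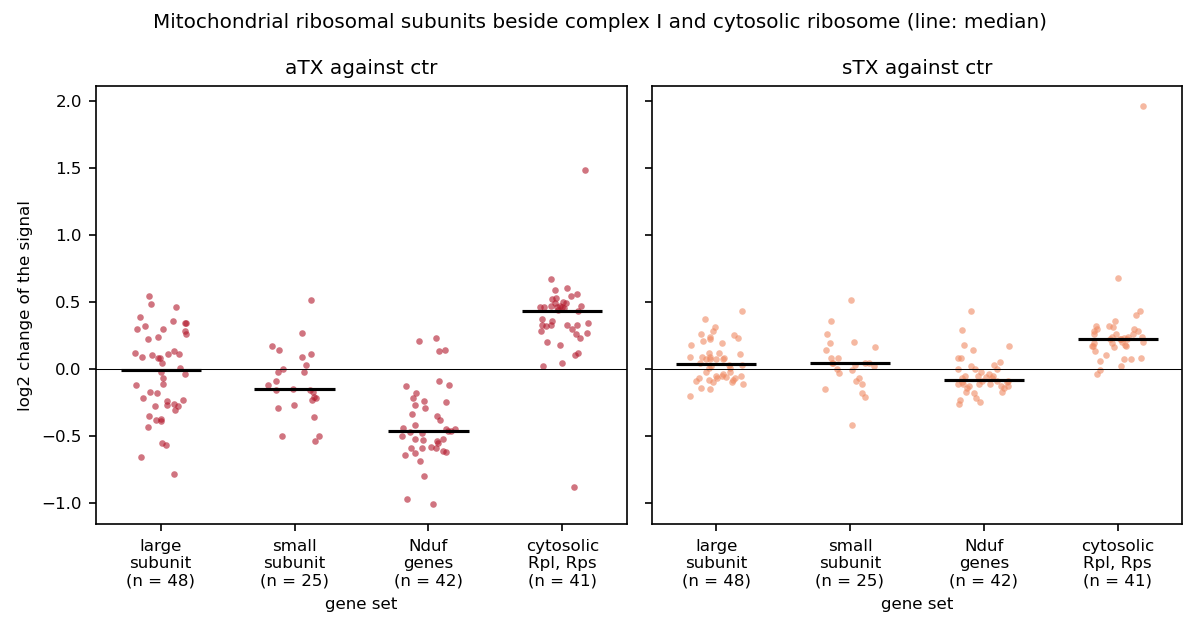
Log2 change (y axis) in aTX against ctr (left) and sTX against ctr (right) of each gene of the mitochondrial large and small subunit, the Nduf genes and the cytosolic ribosomal protein genes. Lines are medians. In aTX the medians were -0.01, -0.15, -0.46 and 0.43 in that order, and the mitochondrial ribosomal genes lay on both sides of 0.

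Other genes of mitochondrial translation, from lists of known function, also went both ways. For the counts below, the background in aTX against ctr was 20.2% higher and 22.2% lower for all probe sets (34.3% and 40.7% for the brighter genes). Of the 5 measured mitoribosomal proteins without an Mrp symbol, 4 were higher and 1 was lower in aTX than in ctr. Dap3, a GTP-binding protein of the small subunit first described in cell death, averaged 233 ± 11.5 in aTX, 193 ± 14 in sTX and 153 ± 11.1 in ctr (log2 change 0.61 ± 0.07 in aTX and 0.33 ± 0.07 in sTX, adjusted p = 4.97e-07 and 0.00245). Ptcd3, a small-subunit protein with pentatricopeptide repeats, averaged 390.3 ± 27.9 in aTX, 473 ± 31.6 in sTX and 539 ± 70.6 in ctr (log2 change -0.46 ± 0.08 in aTX, adjusted p = 0.000141).

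Translation factors had 1 of 15 higher (6.67%) and 5 lower (33.3%) in aTX against ctr, and 0 higher and 0 lower in sTX against ctr (limma). In sTX against ctr 11.4% of all probe sets were higher and 6.32% lower. The elongation factors Gfm1 and Tufm fell by 0.58 ± 0.10 and 0.31 ± 0.07 on the log2 scale in aTX, and Oxa1l, which inserts new proteins into the inner membrane, by 0.34 ± 0.08. The RNA-binding protein Slirp was higher by 0.42 ± 0.08. Among 26 factors of mitoribosome assembly 5 were higher (19.2%) and 8 lower (30.8%). Mettl17 rose by 0.84 ± 0.15 and C1qbp by 0.69 ± 0.07, and Rpusd3, an enzyme that modifies the ribosomal RNA, fell by 0.94 ± 0.12. Of 18 genes for loading mitochondrial tRNAs 2 were higher (11.1%) and 4 lower (22.2%). The higher ones were Kars1 (1.70 ± 0.07) and Gars1 (0.50 ± 0.09), whose enzymes also serve the cytosol. Cars2 (-0.88 ± 0.17) was among the lower ones.

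Of 15 genes for mitochondrial transcription and its regulators 7 were higher (46.7%) and 5 lower (33.3%) in aTX than in ctr. The polymerase Polrmt fell by 0.76 ± 0.09 and its partner Tfb2m by 0.84 ± 0.07, while Tfam, which packages mitochondrial DNA, was not called (log2 change -0.01 ± 0.07). The coactivator Ppargc1a, which drives mitochondrial biogenesis, averaged 203 ± 15.8 in aTX, 342 ± 55.5 in sTX and 392 ± 51.4 in ctr (aTX against ctr, adjusted p = 1.48e-07). Its relative Pprc1, which responds to growth signals, averaged 76.5 ± 9.02 in aTX, 36.9 ± 6.49 in sTX and 27.1 ± 8.06 in ctr (aTX against ctr, adjusted p = 7.77e-07). Transcripts of 3 DNA-binding factors known to act on such genes were higher in aTX than in ctr, Nrf1 by 0.52 ± 0.14, Gabpa by 0.48 ± 0.11 and Yy1 by 0.39 ± 0.08. Gabpa was also higher in sTX than in ctr, by 0.52 ± 0.11 (adjusted p = 0.00167), and gave -0.04 ± 0.11 in aTX against sTX. Nrf1 and Yy1 were not called in sTX against ctr. Esrra, from the same list, was not called in aTX against ctr (-0.23 ± 0.14).

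Some members share their promoter region with another gene that starts on the opposite strand. Within 1000 bases 17 of 59 members (28.8%) had such a protein-coding neighbour, against 6.99% of protein-coding genes. Mrpl47 rose by 0.39 ± 0.08 in aTX against ctr while Ndufb5, a complex I subunit, fell by 0.59 on the log2 scale (adjusted p = 8.39e-07). Mrpl30 fell by 0.37 ± 0.07 while Mitd1 rose by 2.54 (adjusted p = 9.33e-11), and Mrpl32 was not called (0.11 ± 0.06) while the proteasome gene Psma2 rose by 0.78 (adjusted p = 4e-07). Mrpl2 fell by 0.43 ± 0.09 and its neighbour Klc4 fell by 1.35 (adjusted p = 2.04e-12). Mrpl46 and Mrps11 are neighbours of this kind to each other, and Mrps11 fell by 0.21 ± 0.06 while Mrpl46 was not called (0.08 ± 0.08). These pairs were picked for description after their values were seen.

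Where a gene had several probe sets they could be compared directly. Of the 18 such genes 6 had calls that differed between probe sets in aTX against ctr, 3 in sTX against ctr and 8 in aTX against sTX, and in 0 genes were the calls opposite. The RefSeq table also lists numbered pseudogenes for 21 members, whose transcripts could share probe sequence. Among the 52 members without one, 11 were higher (21.2%) and 21 lower (40.4%) in aTX than in ctr (median log2 change -0.09). The background was 20.2% and 22.2% for all probe sets, and 34.3% and 40.7% for the brighter genes.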

How the data were processed

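Total RNA of 15 rat kidneys was measured on 15 Affymetrix Rat Genome 230 2.0 arrays, in groups of 5. The deposited values are MAS5 signal intensities on a linear scale, which the authors scaled to a common mean. In the deposited table the mean without the top and bottom 2% is 100 on every array. Nothing in these intensities gives a read depth, and the number of arrays limits the precision. Replicates are separate kidneys.

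Of 31099 probe sets 57 Affymetrix controls were left out. Of the other 31042, 20826 had a single gene symbol in the platform annotation, 436 several and 9780 none. Signals of 0 (54 values in 36 probe sets) were set to 0.05 and all values were taken to log2. All 15 arrays were fitted in limma 3.58.1 (R 4.3.3, empirical Bayes with an intensity trend), with Benjamini-Hochberg adjustment over all 31042 probe sets and a call at an adjusted p below 0.05. All adjusted p-values are from this limma fit unless another is named. The fit was tested on simulated data. Tables and plots used Python 3.11.15, pandas 2.3.3, numpy 2.4.6 and matplotlib 3.10.9.

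Genes were named by a rule: the 6 largest rises and 6 largest falls among called members of each comparison with a geometric mean signal of at least 50 in the higher group, members with a known role, and the 5 with the highest and the 5 with the lowest mean signal. Mrpl2, Mrpl30, Mrpl32, Mrpl46 and Mrps11, described with a neighbouring gene, were chosen after their values were seen. The members, gene lists and tests were chosen with earlier results of these data known.

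Alternatives were other scalings (median centring, quantile), an offset of 16 and leaving out probe sets with a mean signal under 50. Further ones were the methods' t-test and limma without the trend, with 2 groups or at an unadjusted p below 0.001 (the last chosen after seeing the data). The others were the run, the replicate number, the mean of a gene's probe sets, and leaving out arrays.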

Additional observations from a re-analysis of the deposited data

Results flagged for a closer look

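In 8 of 123 groups of 5 arrays tested over the named genes, 1 array lay far from the other 4 (gap over range above 0.71). Chance flags about 5% of such groups. Mrps31 was 148.0 on ctr 3, with the nearest ctr array at 244.9. Mrpl19 was 193.8 on ctr 3 (nearest 158.6) and Mrps30 was 308.8 on ctr 5 (nearest 290.5). In aTX, Mrpl22 was 530.2 on aTX 1 (nearest 451.1) and Mrpl47 was 175.2 on aTX 4 (nearest 195.1). In sTX, Mrpl38 was 165.6 on sTX 5 (nearest 142.6), Mrpl39 was 123.2 on sTX 1 (nearest 142.2) and Mrps18a was 366.0 on sTX 2 (nearest 394.0). Among the members, 0 were called in opposite directions in aTX and sTX against ctr.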

How the results depend on the processing

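No named gene reversed a called direction under any alternative. The settings at an unadjusted p below 0.001 were not among the alternatives run for single genes. In aTX against ctr the methods' t-test at that threshold kept 8 of the 16 higher members and 16 of the 28 lower ones. The calls it lost included those of Mrpl45, Mrpl19, Mrps6, Mrpl12, Mrps31, Mrpl58 and Mrps9. Of the named genes called in aTX against ctr, 22 of 29 kept the call under the 27 alternatives run for single genes. In aTX against sTX 10 of 21 kept it under 27, and in sTX against ctr 0 of 11 under 26, where blocking on the run left none called. With that block the members' median log2 change in sTX against ctr was 0.04 (0.036 without it), and among all 31042 probe sets 713 were called higher and 255 lower, against 3539 and 1961 without it.

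In aTX against ctr (16 higher, 28 lower, median -0.066) median centring gave a median log2 change of -0.141. At an unadjusted p below 0.001 the methods' t-test gave 8 higher and 16 lower, and limma gave 16 lower. All probe sets gave 3894 higher and 3808 lower with that t-test, and 4620 and 4777 with limma. Leaving out 1 array gave 14 to 17 higher, 24 to 28 lower and medians of -0.107 (without aTX 1) to -0.051.

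In sTX against ctr (13 higher, 1 lower) median centring gave 1 higher and 26 lower (median -0.159), and the run as a block 0 higher and 0 lower. All probe sets gave 1812 higher and 4724 lower with median centring. Lower members numbered 0 with quantile scaling and with 2 groups only, 2 with an offset of 16 and without sTX 4 and sTX 5, and 3 with dim probe sets left out. The methods' t-test gave 8 higher and 0 lower after adjustment and 5 and 0 at an unadjusted p below 0.001, limma at that threshold 6 and 0, and limma with no intensity trend 8 and 0. In the same order all probe sets gave 2529 higher and 1429 lower, 1329 and 716, 2131 and 1111, and 3085 and 1494. Leaving out 1 array gave 8 (without ctr 1) to 12 higher, 0 (without ctr 2) to 2 lower (without sTX 5 or ctr 4) and medians of 0.019 to 0.057.

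In aTX against sTX (6 higher, 28 lower) median centring gave 16 higher and 13 lower (median 0.038), with 5427 higher and 5242 lower among all probe sets. At an unadjusted p below 0.001 the methods' t-test and limma each gave 3 higher and 16 lower, and within the second run 18 were lower. All probe sets gave 2838 higher and 3447 lower with that t-test, 3155 and 4422 with limma, and 3590 and 5120 within the second run. Leaving out 1 array gave 5 to 6 higher, 25 to 30 lower and medians of -0.103 to -0.063. The cause of these shifts was not tested.

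Of 15 same-numbered pairs of arrays 2 correlated above 0.1 (range -0.095 to 0.164, against -0.191 to 0.229 for other pairs). Whether arrays with the same replicate number share a donor was not tested. With the replicate block the counts were 16 higher and 28 lower in aTX against ctr, 11 and 1 in sTX against ctr, and 6 and 27 in aTX against sTX. In the same order all probe sets gave 6194 and 6799, 3403 and 1899, and 4304 and 6733.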
